A study of Rattus norvegicus with 24 samples.

Results

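Urethral transcriptomes were compared between rats that had received mesoangioblasts overexpressing VEGF (MABs-allo-VEGF) and rats that had received the same kind of cells without VEGF (MABs-allo), 7 days (7d) after a simulated vaginal delivery. The comparison took the samples whose labels name VEGF MABs or MABs at day 7, 4 in each group and 8 of the 24 in the series, and covered the 15309 of 32883 genes with a mean of at least 2 normalized counts over these 8 samples. All animals were female Sprague-Dawley rats aged 12 weeks with a crushed pudendal nerve and a distended vagina, injected into the aorta 1 hour later. The injected cells came from hind limb skeletal muscle of another rat, so every sample compared here had both the injury and allogeneic cells. Per the study's methods, MABs were transduced with a lentiviral eGFP and luciferase reporter for tracking, and MABs-allo-VEGF with a lentiviral vector in which the SFFV promoter drives VEGF and a truncated CD34. Both kinds of cells were followed in the animals by their luciferase signal. No group analysed here carried the second vector without VEGF, so VEGF and the rest of that vector cannot be told apart. The labels give the genotype as VEGF OE for the MABs-allo-VEGF group and WT for the MABs-allo group. The model is limited in that 1 allogeneic cell line was used and that the RNA came from whole urethra, of host and injected cells together. The labels mark MABs-allo-VEGF replicates 6 and 7 as recovery, the study's word for rats whose urethral function had returned, and leave replicates 11 and 12 without this word. MABs-allo replicates are numbered 7.2, 9, 11 and 13. Values below follow these orders of replicates. Nothing in the labels ties a sample of one group to a sample of the other.

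VEGF is a secreted growth factor that acts on endothelial cells through the receptors Flt1 and Kdr and their co-receptor Nrp1, and drives vessel sprouting and permeability. Mesoangioblasts are vessel-associated progenitors that can take on smooth and striated muscle fates and secrete growth factors. The female urethra holds an inner epithelium, a layer of smooth muscle and an outer sphincter of striated muscle, with vessels, nerves and fat around it.

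Each library was a 3ʹ mRNA library, and a value is a gene count divided by the size factor of the sample, called normalized count here. The 8 libraries held 5415577 to 10166052 reads on genes, the deepest being MABs-allo replicate 11, and 1 read was worth 1.67 to 4.15 normalized counts. The tissue label was borne out by its markers: the striated muscle gene Acta1 had 32691 to 112489 normalized counts over the 8 samples, the smooth muscle gene Acta2 47521 to 114253, and the urothelial gene Upk1b 2355 to 8812. Adipocyte markers varied most, with Adipoq, which encodes adiponectin, at 2.85 to 5569. Of the steroidogenic markers, Cyp17a1 and Nr5a1 were at 0 reads in all 8 samples. Star had 0 in all 4 MABs-allo-VEGF samples and at most 8.30 normalized counts in MABs-allo. Cyp11a1, of the same marker set, was present, at 13.2 to 87.2 in MABs-allo and 0 to 6.30 in MABs-allo-VEGF. Hsd3b1 was not measured, and the source of the Cyp11a1 reads was not tested. Single samples stood apart from their group. MABs-allo replicate 13 had the highest summed adipocyte and macrophage lists, MABs-allo-VEGF replicate 11 was the 1 sample of the 8 with high milk protein genes, and MABs-allo replicate 7.2 was closest to the MABs-allo-VEGF samples in genes of secretory glands.

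With DEGs taken as genes beyond 1 on the log2 scale and below 0.05 after adjustment of p, limma called 0 of the 15309 genes (0%), and the smallest adjusted p was 0.683. An unadjusted p below 0.05 was reached by 648 genes (4.23%), of which 253 (1.65%) were higher and 395 (2.58%) lower after MABs-allo-VEGF. In 296 genes (1.93%) the samples of the 2 groups did not overlap, 120 (0.784%) of them higher and 176 (1.15%) lower. The median log2 fold change over all tested genes was -0.02, and 47.3% of genes were above 0. Without MABs-allo replicate 9 the genes with an unadjusted p below 0.05 numbered 435 higher and 603 lower, so this sample alone moved both counts by more than 1.5 times. Leaving out MABs-allo replicate 7.2 gave 4 DEGs, all higher after MABs-allo-VEGF (Smr3b, Vcsa2, A2ml1 and Pip, adjusted p = 0.0273, 0.0195, 0.0409 and 0.00206 from limma), and leaving out any other sample gave 0. In the plot of fold change against level, the genes farthest from 0 lay at 6.72 (Fdcsp) and -4.96 (Adipoq).

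**Figure D1:**
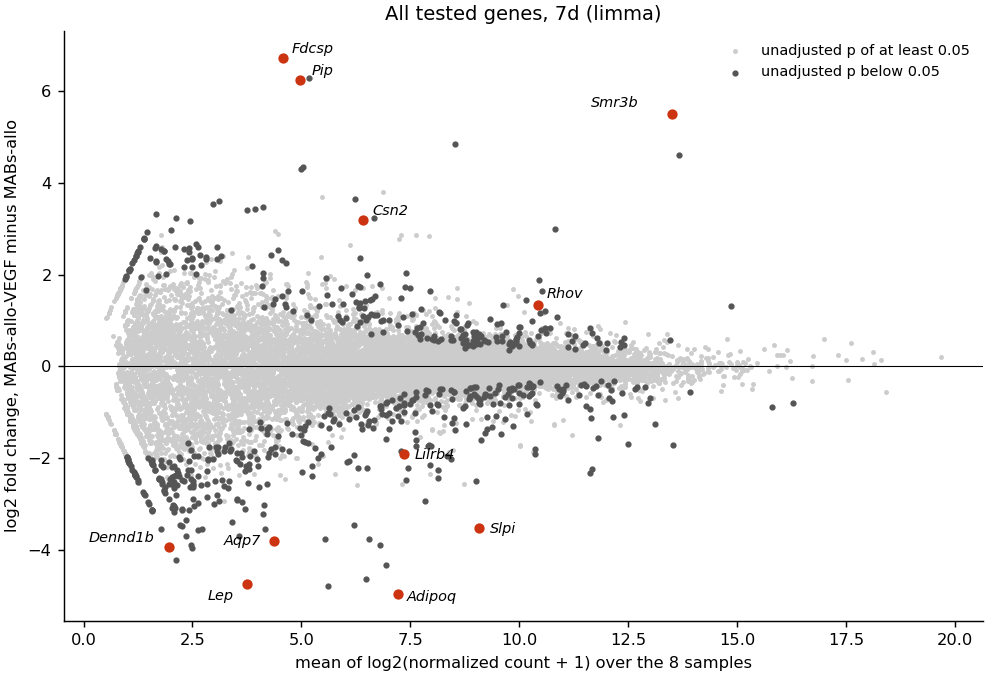
Log2 fold change (MABs-allo-VEGF minus MABs-allo, limma) of the 15309 tested genes at 7d against the mean of log2(normalized count + 1) over the 8 samples. Dark points are the 648 genes with an unadjusted p below 0.05, red points are named genes, and no gene reached an adjusted p below 0.05.

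Count-based tests on the recovered reads called few genes, and which ones depended on the samples in the fit. DESeq2 fitted to all 24 samples of the series called 4 of 20096 genes (0.0199%, with 2.96% at an unadjusted p below 0.05), all lower after MABs-allo-VEGF. These were Vsig2, which encodes an epithelial immunoglobulin-domain protein (log2 fold change -4.52, standard error 0.88, adjusted p = 0.00526), Fer1l4, a ferlin-family gene (-4.82, standard error 1.01, adjusted p = 0.0192), Ubd, a ubiquitin-like modifier induced by cytokines (-5.26, standard error 1.13, adjusted p = 0.0194), and Slpi, an inhibitor of leukocyte proteases (-2.95, standard error 0.65, adjusted p = 0.0317). Fitted to the 12 samples of 7d, DESeq2 called 2 of 18580 genes (0.0108%, with 3.89% at an unadjusted p below 0.05), Aqp7 (adjusted p = 0.00237) and Lilrb4 (adjusted p = 0.0119), both lower. Fitted to the 8 samples alone it called 6 of 18050 (0.0332%, with 3.08% at an unadjusted p below 0.05), of which Aqp7, Lilrb4, Slc7a11, Dpp9 and Sult1b1 were lower and Cldn10 higher. The calls from 24 samples shared 0 genes with those from 12 and 0 with those from 8, and the 2 calls from 12 samples were both among the 6 from 8. edgeR called 0 genes on 12 samples, with 743 genes (4.85%) at an unadjusted p below 0.05. Leaving out each of the 8 samples in turn moved the count of the 24-sample DESeq2 fit between 0, without MABs-allo-VEGF replicate 7, and 15, without MABs-allo replicate 9.

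The values behind these calls showed how far they rested on single animals. Normalized counts of Vsig2 were 65.3, 34.2, 12.4 and 12.6 after MABs-allo-VEGF and 911, 52.98, 1712 and 170.2 after MABs-allo. The highest MABs-allo-VEGF sample lay above MABs-allo replicate 9, so the groups overlapped. Ubd was 25.4, 14.3, 68.3 and 25.2 after MABs-allo-VEGF and 4433, 407, 125 and 154 after MABs-allo, with no overlap but with MABs-allo replicate 7.2 far above the rest. Slpi was 181, 145, 31.03 and 759.7 against 4064, 821, 2214 and 1539.7, again with no overlap (log2 fold change -3.52, standard error 0.75, unadjusted p = 0.000306). Lilrb4, an inhibitory receptor of myeloid cells, was the most even of them. It had 72.6, 106, 62.1 and 101 normalized counts after MABs-allo-VEGF and 309.7, 199, 726 and 216 after MABs-allo, and saline samples at 7d had 233, 217, 154 and 321. Slc7a11, the cystine and glutamate exchanger that feeds glutathione synthesis, was 119.7, 54.2, 43.4 and 85.1 against 412, 228, 272 and 967, without overlap between the groups. Sult1b1, a cytosolic sulfotransferase, was 109, 185, 40.3 and 252 against 1004, 268, 1078 and 610.1. Dpp9, a dipeptidyl peptidase, was 87.1, 74.2, 93.1 and 66.2 against 118, 321, 706 and 709.7, and its highest MABs-allo samples were replicates 11 and 13.

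As a whole, samples of one group were not closer to each other than to samples of the other. The median Euclidean distance over tested genes was 166.0 between groups (16 pairs), 165.5 within MABs-allo-VEGF (6 pairs) and 177.7 within MABs-allo (6 pairs). On the first principal component of the 500 most variable genes, which held 25.8% of the variance, mean scores were 14.5 after MABs-allo-VEGF and -14.5 after MABs-allo (difference 28.98, two-sided exact permutation test, p = 0.2, where 4 against 4 can reach 0.02857). The second component held 20.7% of the variance, with means of 13.3 and -13.3 (exact permutation test, p = 0.0857). Genes leading the first component at its low end were the adipocyte genes Plin1, Adipoq, Lep, Cidec and Retn, and at its high end the gland genes Oprpn, Csap1, Smr3b and A2ml1. The second component was led by the milk genes Csn2, Csn1s2a, Csn1s1 and Glycam1, and set MABs-allo-VEGF replicate 11 apart at a score of 54.7. The first component rested on single samples, since its difference was 45.1 without MABs-allo replicate 9 (exact permutation test, p = 0.02857) and -23.8 without MABs-allo replicate 13 (exact permutation test, p = 0.257). Each such fit gives its own component, whose sign is arbitrary, so the change of sign has no meaning.

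**Figure D2:**
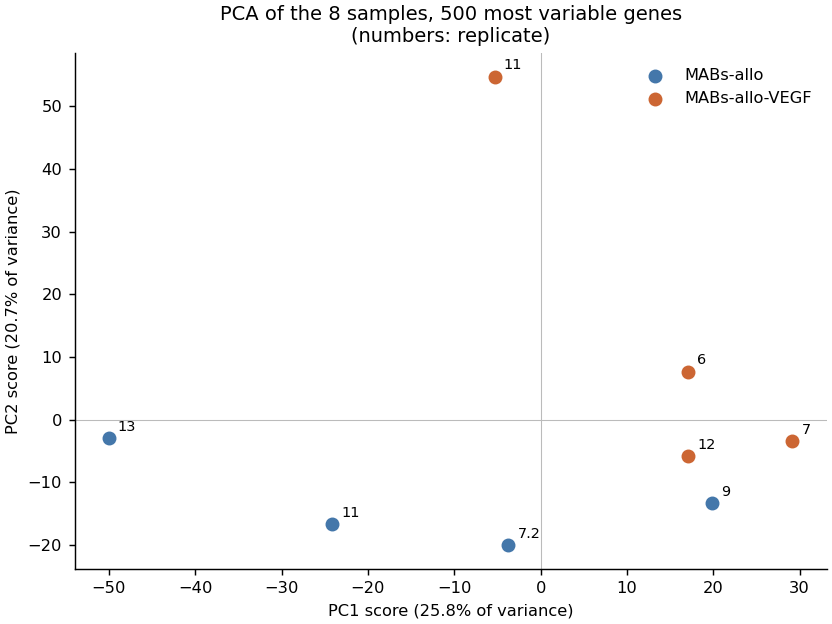
Scores of the 8 samples on the first 2 principal components of the 500 most variable genes, as log2(normalized count + 1), with the replicate number beside each point. MABs-allo replicate 13 sits at -50.0 on the first component, and MABs-allo-VEGF replicate 11 sits at 54.7 on the second.

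The study names 8 genes for this comparison, which it chose on these samples, so their direction here is not independent evidence. Of the 8, 1 was higher and 7 were lower after MABs-allo-VEGF at an unadjusted p below 0.05, and in 5 of them (1 higher, 4 lower) the groups did not overlap. Their median log2 fold change was -3.73, or -3.18 with the 2 genes at 0 reads after MABs-allo-VEGF set at their bound.

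Rhov, an atypical small GTPase related to Cdc42 (ENSRNOG00000013380), was the gene of the 8 that was higher. It had 1741, 2636, 1865 and 2607 normalized counts after MABs-allo-VEGF and 1363, 977, 694 and 593 after MABs-allo, or 2212 ± 475 against 907 ± 345 (SD, n = 4), and saline samples of 7d had 1065, 841, 1490.3 and 682. Every MABs-allo-VEGF sample lay above every sample of the other 2 groups (log2 fold change 1.34, standard error 0.29, unadjusted p = 0.000333, adjusted p = 0.683).

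Of the 7 genes that were lower, 2 belong to adipocytes. Aqp7 (ENSRNOG00000009686), the channel through which fat cells release glycerol, had 3.63, 5.70, 6.21 and 3.15 normalized counts after MABs-allo-VEGF, which is 1 or 2 reads per sample, and 80.5, 19.9, 83.4 and 249 after MABs-allo. Saline samples had 50.7, 172, 70.3 and 138, so the MABs-allo-VEGF group was below all 8 other samples of 7d (log2 fold change -3.81, standard error 0.67, unadjusted p = 5.42e-05). Over the groups there were 142 reads against 6, a ratio of 20.4 with a 95% interval of 9.16 to 56.6 that covers counting error only. Lep (ENSRNOG00000045797), which encodes the satiety hormone leptin, had 3.63, 0, 9.31 and 0 normalized counts against 130.1, 3.31, 28.4 and 1457. MABs-allo replicate 9 fell within the MABs-allo-VEGF range, and replicate 13 alone held 351 of the 411 reads of its group. Cyp11a1 (ENSRNOG00000008074), the mitochondrial enzyme of the first step of steroid synthesis, had 0, 2.85, 3.10 and 6.30 against 30.97, 13.2, 81.7 and 87.2, or 4 reads against 84 (ratio 18.1, 95% counting interval 6.83 to 68.1). Saline samples of 7d had 6.76, 107, 56.9 and 138 normalized counts, so the lowest saline sample was close to the highest MABs-allo-VEGF sample.

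Dennd1b and Ccnb1ip1 had no read in any MABs-allo-VEGF sample. Dennd1b (ENSRNOG00000011063), a regulator of endosome traffic studied in T cells, had 18.6, 23.2, 11.7 and 8.30 normalized counts after MABs-allo, which is 6, 7, 7 and 2 reads, and was at least 6.33-fold lower after MABs-allo-VEGF, counting 3 reads over the group as the limit. Saline samples had 0, 2.49, 16.7 and 3.14, and 1 of them was also at 0. Ccnb1ip1 (ENSRNOG00000026056), a ligase known from meiotic crossing over, had 15.5, 6.62, 8.34 and 4.15 after MABs-allo, which is 5, 2, 5 and 1 reads, and was at least 3.74-fold lower by the same limit. Fer1l4 (ENSRNOG00000019467) had 3.63, 17.1, 9.31 and 28.4 normalized counts after MABs-allo-VEGF and 520.4, 9.93, 979 and 149 after MABs-allo, and S100a5 (ENSRNOG00000011748), a calcium-binding protein, had 7.26, 22.8, 18.6 and 25.2 against 229, 6.62, 300.3 and 78.9. In both, MABs-allo replicate 9 lay within or below the MABs-allo-VEGF range while the other 3 lay above it. Saline samples of 7d spread in a similar way for Fer1l4, with 30.4, 1058, 399 and 770.4.

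**Figure D3:**
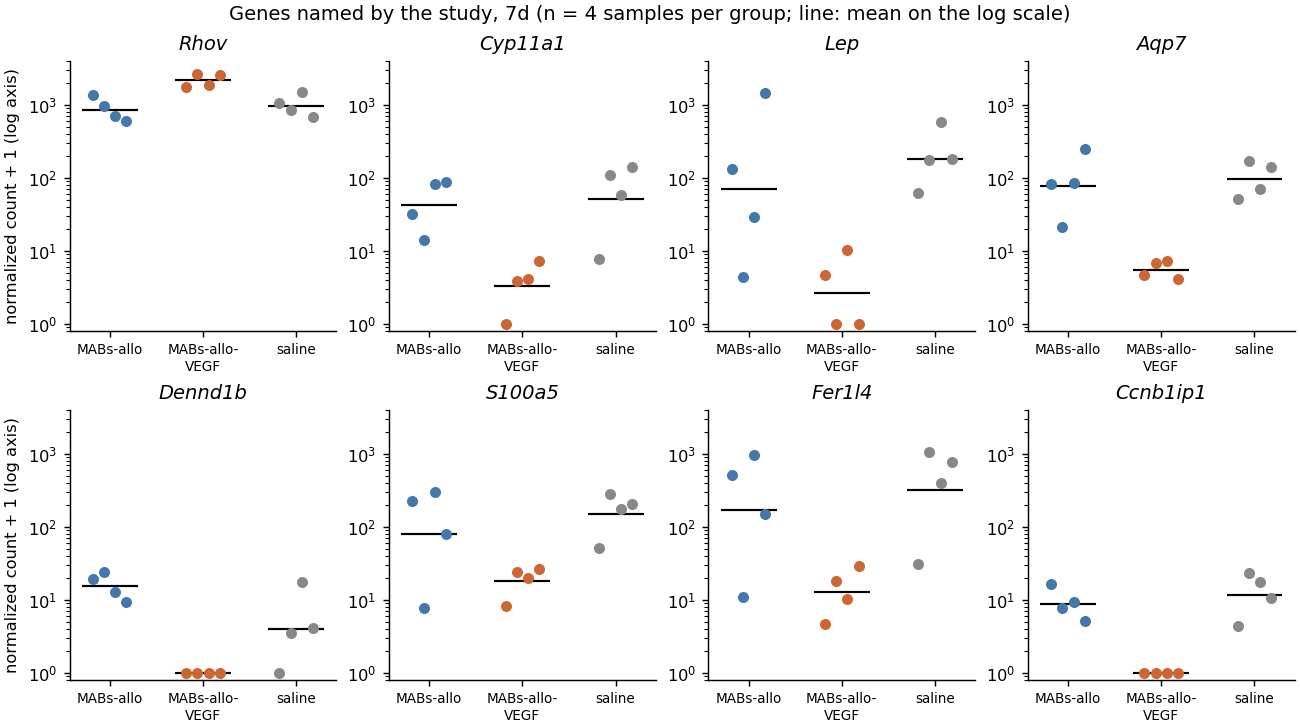
Normalized count + 1 on a log axis in each sample of 7d for the 8 genes the study names, with 4 points per group and a line at the mean on the log scale. Rhov is the gene in which MABs-allo-VEGF samples sit above the others, Dennd1b and Ccnb1ip1 have 0 reads in all 4 of them, and the 4 saline samples lie between 50.7 and 172 in Aqp7, above all MABs-allo-VEGF samples.

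Vegfa and the VEGF receptors overlapped between the groups. Rat Vegfa (ENSRNOG00000019598) had 562, 1121, 829 and 772 normalized counts after MABs-allo-VEGF and 638, 1146, 555 and 623 after MABs-allo (log2 fold change 0.17, standard error 0.25, unadjusted p = 0.515). The groups overlapped fully, and it is not known if VEGF from the vector adds to this count. Cd34, of which the vector carries a truncated form, had 14.5, 11.4, 18.6 and 3.15 against 12.4, 9.93, 3.34 and 16.6, a few reads per sample. The receptors Flt1, Kdr and Nrp1 had log2 fold changes of 0.22 (standard error 0.20), 0.38 (0.29) and 0.44 (0.31), and their ranges overlapped. Kdr, the main signalling receptor, was at 976, 790.1, 698 and 716 against 626, 642, 420.4 and 801.

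Among the 20 VEGF and angiopoietin ligands and receptors, 2 were higher and 2 lower at an unadjusted p below 0.05, beside 1.65% higher and 2.58% lower over all tested genes, with a median log2 fold change of 0.11. These counts rested on single samples, with 0 higher without MABs-allo replicate 13 (1 lower) or MABs-allo-VEGF replicate 11 (3 lower), and 1 lower without any 1 of MABs-allo replicates 7.2 and 11 and MABs-allo-VEGF replicates 6, 7 and 12. The lymphatic growth factor Vegfd was 225, 319, 174 and 218 after MABs-allo-VEGF and 592, 192, 1044 and 709.7 after MABs-allo (log2 fold change -1.24, standard error 0.40, unadjusted p = 0.00754). MABs-allo replicate 9 was within the MABs-allo-VEGF range and the other 3 were above it, as were saline samples at 734, 697, 596 and 544. Pgf, placental growth factor, a ligand of Flt1, had 268, 159.7, 267 and 145 against 121, 166, 78.4 and 87.2 (log2 fold change 0.89, standard error 0.37, unadjusted p = 0.031). Tie1, the endothelial partner of the angiopoietin receptor, had 1393, 1089.6, 1744 and 1753 against 1031, 1368, 1086 and 838 (log2 fold change 0.46, standard error 0.19, unadjusted p = 0.0317). Angpt4, an angiopoietin, had 3 reads in 1 MABs-allo-VEGF sample and 0 in the other 3, against 18.6, 0, 36.7 and 83.00 normalized counts after MABs-allo. Of 30 tested endothelial genes, 1 (Tie1) was higher and 1 (Prox1) lower at an unadjusted p below 0.05, and the median was 0.15. The endothelial count was 3 higher without MABs-allo replicate 11 and 0 higher without MABs-allo replicates 7.2 or 13 or MABs-allo-VEGF replicates 11 or 12.

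The genes with the smallest p among those higher after MABs-allo-VEGF included a block of secretory gland genes, and gave values far apart between samples. Smr3b, a secreted salivary-type protein, had 116593, 169664, 57272 and 32264 normalized counts after MABs-allo-VEGF and 27754, 3480.1, 214 and 423 after MABs-allo (log2 fold change 5.50, standard error 1.21, unadjusted p = 0.00042). The groups did not overlap, although MABs-allo replicate 7.2 was close to the lowest MABs-allo-VEGF sample and saline samples had 15579, 3002, 8932 and 42545. Fdcsp, a small secreted protein of lymphoid follicles and glands, had 522, 462, 109 and 132 against 27.9, 0, 0 and 0 (log2 fold change 6.72, standard error 1.41, unadjusted p = 0.000279). In Fdcsp, 3 of 4 MABs-allo samples had no read and replicate 7.2 had a few. Vcsa2, a relative of Smr3b, had 1309.5, 1095, 121 and 56.7 against 105, 0, 1.67 and 0, and Pip, a protein of exocrine secretions, had 686, 285, 189 and 148 against 170.4, 0, 0 and 0. Smr3b and Vcsa2 are of 1 gene family whose copies may share sequence. Reads that mapped to more than 1 locus were discarded, so their counts are uncertain and may be too low. A2ml1, a protease inhibitor of epithelia, had 2717, 2222, 1862 and 1324 against 1152, 222, 8.34 and 8.30 (log2 fold change 4.84, standard error 1.19, unadjusted p = 0.00114). Cldn10, a tight-junction protein of secretory epithelia, had 232, 225, 118 and 72.5 against 46.5, 0, 3.34 and 12.5 (log2 fold change 4.34, standard error 1.16, unadjusted p = 0.00206).

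A list of 14 such gland genes was then put together after their values had been seen, so it gets no test. Its summed normalized count was 178621, 330706, 109516 and 80293 after MABs-allo-VEGF and 73159.6, 16454, 542 and 963 after MABs-allo, and 26261, 5449, 20299 and 74644 after saline at 7d. In MABs-allo-VEGF replicate 7 these genes made up 1.86% of all normalized counts, and in MABs-allo replicate 11 they made up 0.00320%. Samples of 3d also spread, from 909 to 156693, the highest of them given saline. The 10 milk genes, likewise chosen after seeing the values, summed to 751, 285, 328116 and 309 after MABs-allo-VEGF and to 254, 212, 232 and 241 after MABs-allo. They were high in MABs-allo-VEGF replicate 11 alone among the 8, with Csn2, a casein, at 69666, and 1 saline sample of 7d had a sum of 67507. Glands or mammary tissue taken along with the urethra, and their part in the results, were not tested.

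Other genes among the 15 of smallest p that were higher differed less in size but more evenly. Stc1, which encodes the calcium-regulating hormone stanniocalcin, had 1875, 2453, 2209.6 and 2008 normalized counts after MABs-allo-VEGF and 768, 1533, 739 and 921 after MABs-allo (log2 fold change 1.17, standard error 0.29, unadjusted p = 0.00122). Cat, the peroxide-degrading enzyme catalase, had 4063, 3859, 5170.1 and 4445 against 2456, 2709, 3094 and 3179 (log2 fold change 0.62, standard error 0.17, unadjusted p = 0.00272), and Tmem159, a lipid droplet protein, had 1197, 1018, 1316 and 1195 against 753, 864, 831 and 726 (log2 fold change 0.57, standard error 0.15, unadjusted p = 0.00201). All 3 were without overlap between the cell-treated groups. Saline samples of 7d had 829 to 2220.4 for Stc1 and reached 4764 for Cat and 1217 for Tmem159, within or beside the MABs-allo-VEGF range. Atp2a3, a calcium pump of the endoplasmic reticulum, had 1168, 1751, 984 and 1217 against 802, 871, 245 and 340.3, and Misp, an actin-binding protein of epithelia, 94.3, 137, 124 and 258 against 65.05, 36.4, 61.7 and 20.8. Krt1, a keratin of cornifying epithelium, had 5242, 2593, 6188 and 8373 against 1000.5, 2967, 143 and 398 and overlapped through MABs-allo replicate 9. Slc9a3, a sodium and proton exchanger of epithelia, had 2, 4, 4 and 2 reads after MABs-allo-VEGF and none after MABs-allo, and was at least 4.63-fold higher with 3 reads over the group as the limit. Cadps, which primes dense-core vesicles, had 39 reads against 3 (ratio 15.05, 95% counting interval 4.78 to 76.1).

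The 15 genes of smallest p among those lower held, beside those named above, Slfn2, a regulator of immune cell quiescence, at 305, 291, 298 and 331 after MABs-allo-VEGF and 629, 715, 415 and 589 after MABs-allo (log2 fold change -0.91, standard error 0.22, unadjusted p = 0.00105). Plekhb2, an endosomal lipid-binding protein, had 1599.8, 1854, 1496 and 1970.2 against 2834, 2222, 3425 and 3133 (log2 fold change -0.74, standard error 0.19, unadjusted p = 0.00139). Both were without overlap and at levels well above the limit of detection. Others of the 15 had few reads. Adig, a small adipocyte protein, had 28 reads after MABs-allo and 2 after MABs-allo-VEGF (ratio 12.1, 95% counting interval 3.05 to 105). Colec11, a soluble lectin of innate immunity, had 20 reads against 1 (ratio 17.3, interval 2.76 to 716). Gm22009 had 22 reads against 1, and AABR07035722.1 had 17 against none, at least 4.89-fold lower.

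Gene lists were described by the share of members with an unadjusted p below 0.05 and by their median, beside 1.65% higher, 2.58% lower and a median of -0.02 over all tested genes. In bulk tissue fewer cells of a type cannot be told apart from less RNA per cell. Adipocyte genes were the list with the most members lower. Of 35 names, 34 were in the table and 32 passed the filter, and 15 of these were lower and 0 higher, with a median of -0.81. Adipoq had 14.5, 2.85, 419 and 18.9 normalized counts after MABs-allo-VEGF and 697, 86.1, 1383 and 5569 after MABs-allo (log2 fold change -4.96, standard error 1.35, unadjusted p = 0.00238), and saline samples had 318, 3612, 1845 and 3629. MABs-allo replicate 9 lay below MABs-allo-VEGF replicate 11, so the groups overlapped. In Plin1, Cidec and Retn it was again MABs-allo replicate 9 that lay low and MABs-allo-VEGF replicate 11 that lay high. Plin1, the coat protein of fat droplets, had 10.9, 8.56, 217 and 3.15 against 561, 19.9, 736 and 4511, and Cidec, which enlarges them, 3.63, 2.85, 96.2 and 3.15 against 443, 13.2, 629 and 1067. Cfd, the complement factor adipsin, had 1984, 516, 4438 and 848 against 6028, 1328, 7867 and 38658, and Retn, which encodes the hormone resistin, 7.26, 14.3, 229.6 and 18.9 against 424, 33.1, 2137 and 3054. Lpl, Lipe and Dgat2, enzymes of fat handling that other cells also express, had smaller log2 fold changes of -0.94, -0.79 and -0.83. The summed level of the list was 31694, 28573, 41327 and 22388 after MABs-allo-VEGF, 43514, 30159, 62085 and 144787 after MABs-allo and 39053, 99389.7, 86165 and 103821 after saline. None of the defining markers Adipoq, Plin1, Cidec and Fabp4 was at 0 in any sample, and Lep was at 0 in 2 MABs-allo-VEGF samples. The count rested in part on 2 samples, with 8 of 32 lower without MABs-allo replicate 13 and 8 of 32 without MABs-allo-VEGF replicate 7. The share of fat around the urethra in each sample was not tested.

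Inflammatory genes were the other lists with many members lower. Of 13 tested neutrophil genes, 6 were lower and 0 higher, with a median of -1.91. S100a9, a calcium-binding alarm protein of neutrophils, had 1426, 841, 168 and 1047 normalized counts after MABs-allo-VEGF and 2580.2, 1619, 2884 and 3474 after MABs-allo, without overlap (log2 fold change -1.91, standard error 0.54, unadjusted p = 0.00312). Its partner S100a8 had 1531, 762, 186 and 1119 against 2041, 1477, 3261 and 3768, where MABs-allo replicate 9 lay just below the highest MABs-allo-VEGF sample. Mmp9, a gelatinase that neutrophils store, had 10.9, 14.3, 0 and 3.15 against 49.6, 29.8, 100.1 and 87.2 (log2 fold change -3.54, standard error 1.18, unadjusted p = 0.0095). Summed neutrophil genes were 3199.5, 1851, 1619.9 and 2563 after MABs-allo-VEGF and 5294, 3424, 6781 and 8408 after MABs-allo, without overlap, while saline samples had 1711, 5651, 3664 and 3600.4. In the cell-treated samples, except MABs-allo-VEGF replicate 11, S100a8 and S100a9 made up most of this sum, so it mainly repeats these genes. Without MABs-allo-VEGF replicate 7 the count was 3 of 13.

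Of 37 cytokines and chemokines, 10 were lower and 0 higher, with a median of -0.51. Ccl3, a chemokine that attracts macrophages and T cells, had 3.63, 0, 12.4 and 15.8 against 74.3, 13.2, 155 and 45.7. Its relative Ccl4 had 0, 0, 12.4 and 6.30 against 24.8, 36.4, 16.7 and 12.5. Both were at 0 to 5 reads in each MABs-allo-VEGF sample. For Ccl4 the groups did not overlap in normalized counts, but only by 12.41 against 12.45. In reads they overlapped, with up to 4 after MABs-allo-VEGF and as few as 3 after MABs-allo. Ccl19, which guides lymphocytes and dendritic cells, had 156, 217, 49.7 and 110.3 against 833, 331, 1535 and 170.2 (log2 fold change -2.14, standard error 0.64, unadjusted p = 0.00457). The macrophage cytokines Tnf and Il1b had log2 fold changes of -2.89 (unadjusted p = 0.0108) and -1.39 (unadjusted p = 0.0129). Il1rn, the interleukin 1 receptor antagonist and 1 of the 2 most abundant members, had 2703, 3791, 2609.9 and 7339 against 5910.0, 6394, 8896 and 2399, with overlap. Members lower ran from 6 of 37 without MABs-allo-VEGF replicate 6 to 13 without MABs-allo-VEGF replicate 12. Members higher numbered 2 without MABs-allo replicate 13, and 1 without MABs-allo replicate 11 or MABs-allo-VEGF replicates 7 or 12.

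Of 25 macrophage and complement C1q genes, 4 were lower and 0 higher, with a median of -0.53. Beside Lilrb4 these were Cd163, the haemoglobin scavenger receptor, at 628, 168, 534 and 287 against 691, 430.5, 1119 and 2785, C1qc at 3642, 1723, 1927 and 1841 against 4036, 1937, 3692 and 8611, and Mrc1, the mannose receptor, with a log2 fold change of -1.04. Saline samples had 1928, 2300.0, 2304 and 1579 normalized counts of Cd163. The count of 4 moved most with single samples, to 12 of 25 without MABs-allo replicate 9, to 7 without MABs-allo-VEGF replicate 6 and to 2 without MABs-allo replicates 7.2 or 13 or MABs-allo-VEGF replicate 7, each left out alone. The summed list ranged from 77463 to 141815 after MABs-allo-VEGF (median 114823) and from 97997 to 184486 after MABs-allo (median 102236). The median of this sum was thus higher after MABs-allo-VEGF, and the MABs-allo maximum was replicate 13 alone. Apoe alone made up a large part of the sum, at 52225 to 99837 after MABs-allo-VEGF and 37762 to 101996 after MABs-allo. Of the 25 members, 21 had a log2 fold change below 0, so the sum does not describe most of the list. T and NK cell genes had 2 of 22 lower and a median of -0.45, B and plasma cell genes 1 of 10 lower and a median of 0.21, and mast cell genes 1 of 12 lower and a median of -0.57. The T and NK cell median was -0.09 without MABs-allo replicate 7.2, -0.97 without MABs-allo replicate 9 and -1.01 without MABs-allo-VEGF replicate 12, where 4 were lower. The B and plasma cell median fell below 0 without MABs-allo replicate 13 (-0.05) or MABs-allo-VEGF replicate 12 (-0.11). Mast cell genes had 0 lower without MABs-allo replicates 7.2 or 13 and 3 without MABs-allo replicate 9 or MABs-allo-VEGF replicate 11.

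**Figure D4:**
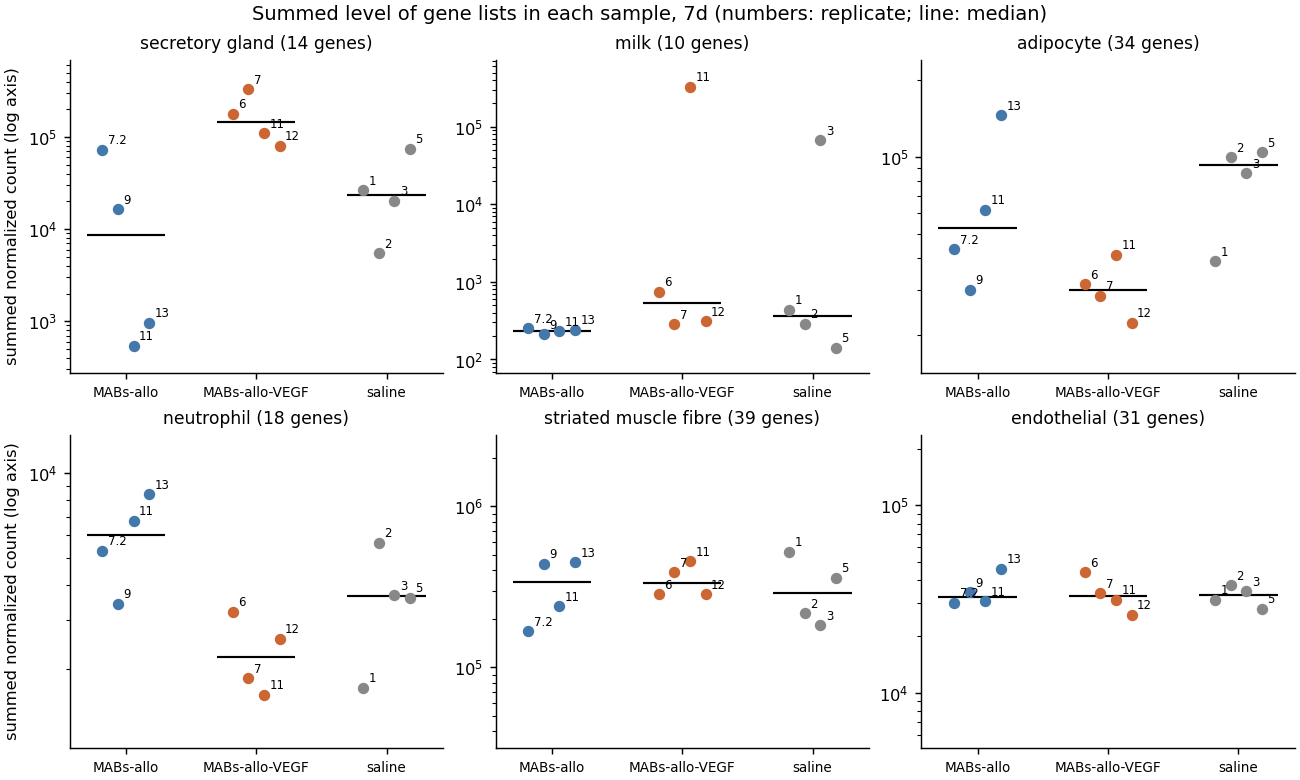
Summed normalized count of 6 gene lists in each sample of 7d on a log axis, with the replicate number beside each point and a line at the median. Gland genes are highest after MABs-allo-VEGF, and milk genes are high in MABs-allo-VEGF replicate 11 and 1 saline sample. Neutrophil sums do not overlap between the 2 cell-treated groups, where S100a8 and S100a9 make up most of them except in MABs-allo-VEGF replicate 11. Striated muscle and endothelial genes overlap.

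Enzymes that remove oxidants and enzymes that make them were listed apart. Of 32 antioxidant and detoxification genes, 2 were higher and 5 lower, with a median of -0.15. Cat and Aldh3a1, an epithelial aldehyde dehydrogenase (log2 fold change 1.89), were the 2 that were higher. Sod2, the mitochondrial superoxide dismutase, had 2695, 3477, 2728 and 3505 against 4575, 4424, 6609 and 14309 without overlap (log2 fold change -1.10, standard error 0.35, unadjusted p = 0.00683), and Mt2A, a metal-binding protein with near-identical copies, had 11206, 2533, 3047 and 1188 against 7183, 4930.4, 6854 and 46796. Txn1 and Prdx5, of the thioredoxin system, had log2 fold changes of -0.69 and -0.70. The members that were lower numbered 9 without MABs-allo replicate 9 and 3 without MABs-allo replicate 13, where the median was -0.03. Of 13 NADPH oxidase and other oxidant sources, 1 was lower, the neutrophil peroxidase Mpo with 7.26, 0, 12.4 and 0 against 30.97, 9.93, 26.7 and 141, and 0 were lower without MABs-allo-VEGF replicate 7 and 2 without MABs-allo replicate 9.

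Epithelial genes went both ways. Among 20 urothelial genes, 2 (Vsig2 and Krt7) were lower and the median was -0.40. The count was 4 without MABs-allo replicate 9 or MABs-allo replicate 13 and 1 without MABs-allo replicate 11 or MABs-allo-VEGF replicate 11. Krt7, a keratin of urothelium, had 7215, 8600.0, 2380.2 and 7134 against 17371, 10695, 25367 and 7462, with overlap through MABs-allo replicate 13. Upk2, a uroplakin of the urothelial surface, had 192, 334, 96.2 and 151 against 3299, 79.5, 7049.6 and 614 and 284, 11371, 2783 and 8166 after saline, so that MABs-allo replicate 9 lay below the MABs-allo-VEGF samples and saline replicate 1 lay within them (log2 fold change -2.56, standard error 1.24, unadjusted p = 0.0576). Of 24 squamous and cornification genes, 2 were higher and 4 lower (median 0.27), led by Krt1 on one side and by Krtdap, a keratinocyte differentiation protein, on the other. Those lower numbered 1 without MABs-allo-VEGF replicates 6, 7 or 11 and 2 without MABs-allo replicates 9, 11 or 13, those higher 4 without MABs-allo replicate 9, and the median ran from -0.07 without MABs-allo replicate 13 to 0.57 without MABs-allo replicate 9.

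Lists of mature striated and smooth muscle genes lay close to the background. Those of myogenic, nerve and matrix genes held a few members past an unadjusted p of 0.05. Of 38 genes of mature striated muscle fibre, 0 were higher and 1 lower, with a median of 0.19. The 1 was Tpm3, a tropomyosin, at 755, 536, 438 and 583 against 942, 1215, 677 and 1208. Acta1 had 51406, 77212, 112489 and 64799 after MABs-allo-VEGF and 32691, 81913, 51486 and 106312 after MABs-allo, within each other's range. Without MABs-allo replicate 7.2 the median of the striated list was -0.09, and 2 members were lower. Of 27 genes of myogenic differentiation 2 were higher (Heyl, a Notch target, and Dmrt2, a regulator of myogenesis) and 1 lower (Tnnt2), and of 26 smooth muscle genes 0 were higher and 0 lower, with medians of 0.07 and -0.12. Myogenic genes had 4 higher without MABs-allo replicate 9 or 11 and a median of -0.13 without MABs-allo replicate 7.2, and smooth muscle genes had 2 lower without MABs-allo-VEGF replicate 7. Gap43, the growth cone protein stained in the study, had 424, 311, 450.0 and 233 against 251, 321, 309 and 344 (log2 fold change 0.17, standard error 0.46, unadjusted p = 0.713). Of 31 neuron and axon genes 2 were higher, Map2 among them at 127, 168, 301 and 94.6 against 49.6, 89.4, 102 and 58.1, and 3 lower, among them Penk, which encodes enkephalins, and Basp1, a protein of axon ends. The neuron list had 0 higher without MABs-allo-VEGF replicate 11 and 1 lower without MABs-allo replicate 11. Of 25 Schwann cell and myelin genes 1 was higher, and it was Prx, at 87.1, 79.9, 788 and 75.7 against 52.7, 92.7, 31.7 and 49.8, where MABs-allo-VEGF replicate 11 alone was high. The Schwann cell median was 0.34, and without that sample it was 0.06 with 0 higher, while 3 were higher without MABs-allo-VEGF replicate 12. Of 38 collagen and matrix genes 4 were lower, among them Timp1, an inhibitor of matrix proteases, at 2641, 1575, 2159.9 and 2169 against 2853, 1990.0, 37184 and 6814, and Mmp3, a matrix protease, at 25.4, 14.3, 43.4 and 3.15 against 83.6, 36.4, 404 and 41.5. The count rested on single samples, with 0 of 38 lower without MABs-allo replicate 11, 7 without MABs-allo replicate 9, and 2 without MABs-allo replicate 13 or MABs-allo-VEGF replicates 7 or 12. Col1a1 and Col3a1, the main fibrillar collagens, had log2 fold changes of 0.51 and 0.02 and overlapped. Cytosolic ribosomal protein genes (71, median -0.02) and chromatin modifiers (48, median -0.04) were at the median of all genes.

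**Figure D5:**
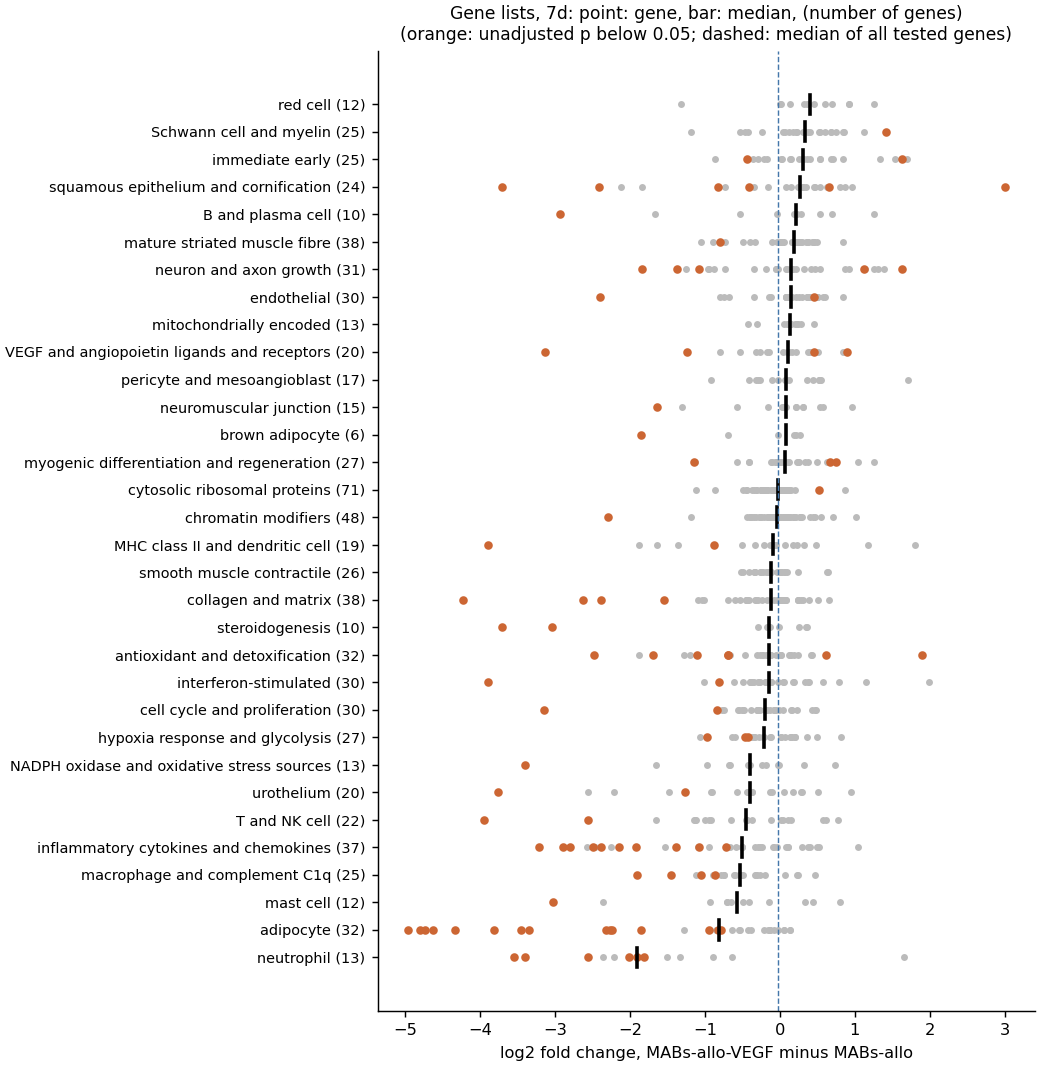
Log2 fold change (MABs-allo-VEGF minus MABs-allo, limma) of each tested member of 32 gene lists at 7d, with a bar at the median of the list and the number of members in brackets. Neutrophil (median -1.91) and adipocyte (median -0.81) genes lie farthest below the dashed line at the median of all tested genes, -0.02.

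The labels divide the MABs-allo-VEGF samples into 2 marked recovery and 2 not, and values are given here without a test across genes. An exact permutation test of 2 against 2 cannot go below p = 0.333. The study names genes for recovered urethras, again chosen on these samples. Of the 18 followed here, Aqp7 (3.63 and 5.70 in the recovery samples, 6.21 and 3.15 in the others) and Cyp11a1 (0 and 2.85 against 3.10 and 6.30) were described above, and the other 16 follow. Arhgap18, a GTPase-activating protein that acts on the actin cytoskeleton, had 1599.8 and 1614 normalized counts in the recovery samples and 751 and 533 in the others, against 596 to 1121 after MABs-allo. Apcdd1l, a relative of a Wnt inhibitor, had 232, 119.8, 43.4 and 28.4 against 74.3, 69.5, 18.3 and 37.4, with both recovery samples above every other sample. These 2 were the genes of the 16 that were higher in recovery samples, by 1.34 and 2.22 on the log2 scale. The other 14 were lower in the 2 recovery samples than in the 2 others, by log2 differences of -1.02 (Krtdap) to -3.56 (Adipoq). For Adipoq, Cidec, Retn, Pck1 and Plin1 this rested on MABs-allo-VEGF replicate 11, as its Adipoq count was 419 and that of replicate 12 was 18.9, beside 14.5 and 2.85 in the recovery samples. Angpt4, Ankef1, Akr1c3 and Krtdap had reads in replicate 11 alone of the 4 (3, 3, 5 and 1 reads), so their differences rested on it too. Ccl3 and Ccl4 differed from these in that both samples without the word lay above both recovery samples (Ccl4: 0, 0, 12.4 and 6.30). Among the 4 MABs-allo-VEGF samples, Cd27 and Noxo1 were highest in replicate 12, at 12.6 and 129 normalized counts. Set against MABs-allo, the cytokine list had a median log2 difference of -0.82 in the recovery samples and -0.27 in the others, the T and NK cell list -1.57 and 0.34, the neutrophil list -1.74 and -2.20, and the adipocyte list -0.79 and -0.80.

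Whether the difference between the 2 kinds of cells depended on the day was tested as an interaction over 16384 genes. An unadjusted p below 0.05 was reached by 5.15% of genes. The interaction was called at 1 gene (0.0061%), Ccnb1ip1, with a log2 fold change of -3.14 at 7d and 3.09 at 3d (difference -6.23, standard error 0.97, adjusted p = 0.0229 from limma). At 3d its normalized counts were 5.41, 8.33, 5.04 and 13.4 after MABs-allo-VEGF, which is 1 to 3 reads, and 0 in all 4 MABs-allo samples, opposite to 7d and at the limit of detection. With 1 group at 0 on each day, the fitted fold changes depend on the pseudocount and are no bounds. The call was lost with a pseudocount of 5 and when any of 10 single samples was left out. It was also lost in DESeq2, which called 0 of 20096 genes with 856 (4.26%) at an unadjusted p below 0.05. With the replicate number as a block it was lost too. Nothing in the labels ties samples of equal number together, so that fit cannot decide on the call. Slpi followed, at 400.1, 450.1, 489 and 517 after MABs-allo-VEGF and 78.1, 241, 499 and 70.5 after MABs-allo at 3d (difference -5.04, adjusted p = 0.262 from limma).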

How the data were processed

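RNA from whole urethra was made into 3ʹ mRNA libraries (Lexogen QuantSeq). Per the study's methods, reads were trimmed with fastq-mcf, aligned with HISAT2 to Rnor6.0, multi-mapped reads were discarded, and genes were counted with HT-seq Count, so genes with near-identical copies are uncertain. The authors deposited 1 table of 32883 genes in 24 samples, a signal in normalized counts, that is counts divided by a size factor per sample. The study states that gene counts were normalized with DESeq2. Over the 24 samples 1 read was worth 1.67 to 9.23 normalized counts, so every factor was below 1. How these factors were scaled is not known. Whole reads were recovered from the deposited values for 100% of them (tolerance 0.01), and library sizes are sums of these reads.

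limma 3.58.1 in R 4.3.3 (eBayes with trend, two-sided) was fitted to log2(normalized count + 1) of the 12 samples of 7d, including 4 saline samples for the estimate of spread. Fold changes on this scale understate those of low genes. Genes needed a mean of at least 2 over the 8 samples compared. p-values were adjusted by Benjamini-Hochberg over all 15309 tested genes, and a DEG needed a fold change beyond 1 on the log2 scale and an adjusted p below 0.05. DESeq2 1.42.0 (with ashr 2.2.63 for shrinkage) and edgeR 4.0.16 were run on recovered reads. Scripts were tested on simulated data.

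Of 1028 list entries, 984 matched a symbol in the table. Named genes were the genes the study names, Vegfa, Cd34, Gap43 and VEGF receptors, the 15 genes of smallest p in each direction, DESeq2 and interaction calls, and from each list the 3 of smallest p and the 2 most abundant. A few items are not reported here. Members and lists were chosen with earlier results of these data known. The labels do not say which rat each sample came from, and p-values measure only the spread between these samples, which may in part be technical. Counting intervals cover counting error only.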

Additional observations from a re-analysis of the deposited data

Results flagged for a closer look

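In 186 sets of 4 samples (named genes and summed lists, per group), the highest or lowest sample was compared with the other 3. A gap above 0.829 of the range was taken as far from the others. Chance gives this in about 1 of 20 sets of normally distributed values, which counts are not. Sets with 3 samples at 0 and 1 with any read pass by construction, so that rate does not hold for them. In MABs-allo, the macrophage list, of whose sum Apoe is a large part, summed to 184486 in replicate 13 (others 97997 to 102270). The T and NK cell list summed to 7970 in replicate 7.2 (others 2368 to 2854). Replicate 7.2 was also the MABs-allo sample with reads for Fdcsp (27.9) and Pip (170.4), both at 0 in the other 3.

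In MABs-allo-VEGF, 8 of 12 such values were of replicate 11. Its summed milk genes were 328116 (others 285 to 751), its Schwann cell and myelin genes 80515 (others 23946 to 25549) and its chromatin modifiers 50534 (others 60399 to 61806). Cidec was at 96.2 there (others 2.85 to 3.63). It alone had reads for Angpt4 (9.31), Ankef1 (9.31), Akr1c3 (15.5) and Krtdap (3.10). The myogenic list was low in replicate 12, at 62747 (others 83339 to 86590). Adig (5.70) and Colec11 (2.85) had reads in replicate 7 alone, and Gm22009 (3.15) in replicate 12 alone, each 1 or 2 reads.

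Ccnb1ip1 was the gene whose difference between the 2 kinds of cells differed between days, by -6.23 on the log2 scale.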

How the results depend on the processing

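The number of DEGs was 0 in the reported fit, 2 with DESeq2 on 12 samples (2 with ashr), 4 on 24 samples (4 with ashr) and 6 on 8 samples, the fits on 24 and 8 samples being chosen after seeing the data. Leaving out each of the 8 samples gave 0 to 4 DEGs, and 200 to 435 higher and 318 to 603 lower genes at an unadjusted p below 0.05. The difference on the first principal component ran from -23.8 (without MABs-allo replicate 13) to 45.1 (without MABs-allo replicate 9), where the sign of each refitted component is arbitrary. The interaction between cells and day gave 0 genes with a pseudocount of 5, 0 in DESeq2, 0 with the replicate block and 0 to 2 when single samples were left out, against 1 as reported. The cause of these shifts was not tested.

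Cd34 changed sign (-0.29 to 0.60 with single samples left out), to -0.29, -0.03 and -0.15 without MABs-allo replicate 11 or MABs-allo-VEGF replicates 6 or 11. With only the MABs-allo-VEGF samples not marked recovery, log2 fold changes were -0.19 (Cd34), -0.050 (Flt1), -0.20 (Arhgap18) and -0.30 (Apcdd1l). No other followed gene changed sign in any alternative run. Another scaling moved the median of all genes from -0.02 to -0.03 (same total) or 0.01 (quantile). No paired analysis was possible because the 2 groups at 7d share only the replicate number 11.

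With 1 read worth 1.67 to 4.15 normalized counts, differences in genes of a few reads, such as Dennd1b and Ccnb1ip1, were near the limit of detection.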

Other observations

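Further gene groups had medians between -0.21 and 0.41, beside -0.02 over all tested genes. Hypoxia and glycolysis genes had 3 of 27 lower at an unadjusted p below 0.05 (Pkm, Ldha and Pgam1, enzymes of glycolysis, with log2 fold changes of -0.97, -0.42 and -0.46) and a median of -0.21. Without MABs-allo replicate 13 there were 0 lower and a median of 0.02, and without any 1 of MABs-allo-VEGF replicates 6, 11 and 12 there was 1 lower. Interferon-stimulated genes had 2 of 30 lower, Ubd and the transcription factor Irf1 (-0.81), and a median of -0.15. Cell cycle genes had 2 of 30 lower, Ccnb1ip1 and Hmgb2 (-0.84), with a median of -0.20 that ran from -0.59 without MABs-allo replicate 9 to 0.41 without MABs-allo replicate 11, and was 0.10 without MABs-allo-VEGF replicate 7. Immediate early genes had a median of 0.31, with Atf3, a stress-induced factor also known from injured neurons, at 1.64 and Ier3 at -0.43. That median was 0.07 without MABs-allo replicate 7.2, and 5 of 25 were higher without MABs-allo replicate 9. Red cell genes had a median of 0.41 with 0 of 12 past an unadjusted p of 0.05. It was 1.19 without MABs-allo replicate 13 (2 of 11 higher) or MABs-allo-VEGF replicate 7 (2 of 12 higher) and 0.12 without MABs-allo-VEGF replicate 6. Among genes of the neuromuscular junction, Nrg1, which encodes a growth factor of nerve and muscle, was at -1.64 without overlap of the groups, 1 of 15 tested, and 0 were lower without MABs-allo replicates 9 or 11 or MABs-allo-VEGF replicate 12. Among steroidogenesis genes, Cyp11a1 and Akr1c3 were the 2 of 10 that were lower, and the median was -0.14. Pericyte and mesoangioblast genes had 0 of 17 past an unadjusted p of 0.05 in either direction and a median of 0.09.

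MABs-allo replicate 9 lay within or below the MABs-allo-VEGF range in Fer1l4, S100a5, Lep, Vegfd and Upk2, and without it DESeq2 on the remaining 23 samples called 15 genes, among them Vegfd, Timp1, Fabp4, S100a5, Stc1 and Upk2. Without MABs-allo-VEGF replicate 11 it called 10 genes, among them Retn, Adipoq, Cidec, Plin1 and Gpd1.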
